A study of Mus musculus with 4 samples.

Results

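Natural killer (NK) cells are innate lymphocytes that kill infected and transformed cells without a rearranged antigen receptor. Each NK cell weighs signals from activating receptors, such as NKp46 (Ncr1), NKG2D (Klrk1) and part of the Ly49 family, against signals from inhibitory receptors that bind MHC class I, and it kills with perforin and granzymes. In bone marrow, where NK cells also develop, immature cells carry more Il7r, Cd27 and Tcf7, and mature cells gain Itgam, Zeb2, S1pr5 and granule genes. The gated cells described here numbered 175 of 39743 kept cells and of 41393 deposited barcodes. They were chosen by their counts of unique molecular identifiers (UMIs, which mark single captured RNA molecules): at least 2 UMIs of Ncr1 plus Klrb1c (NK1.1), none of the T cell receptor subunits Cd3d, Cd3e and Cd3g, none of Siglech (plasmacytoid dendritic cells) or Mcpt8 (basophils), and at most 1 UMI of the neutrophil genes Mmp8, Mmp9 and Cxcr2. Kept cells had at least 300 genes and at most 20% mitochondrial UMIs.

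Bone marrow (BM) came from the 5TMM model, in which 5TGM1-luc mouse myeloma cells were injected intravenously into 6-week-old C57BL/KawRij mice and left to grow for 3 weeks. Of these tumor-bearing mice, 2 received vehicle and 2 received PM (purinostat mesylate), an inhibitor of class I and IIb histone deacetylases, at 10 mg/kg for 24 h, so both groups carried myeloma and no tumor-free mouse was included. Each of the 4 droplet-based 3′ libraries of BM cells, made after red cell lysis, was taken as 1 mouse, since the study counts 2 mice a group and the labels do not name the animals. They held 86052982 UMIs in vehicle 1, 69828595 in vehicle 2, 109447030 in PM 1 and 74388936 in PM 2. The study asked how PM affects the myeloma cells and the immune cells around them. Of 41226 distinct barcode sequences, 166 occurred in more than 1 library, and none of these was among the 175 NK cells.

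The gate yielded 20 NK cells in vehicle 1, 37 in vehicle 2, 72 in PM 1 and 46 in PM 2. Their summed UMIs were 96462, 159135, 250645 and 173795 in the same order, so vehicle 1 had the smallest NK sum. The median per NK cell was 3374.5, 3726, 3093 and 3609 UMIs, lowest in PM 1. Before the exclusions, 519 kept cells had at least 2 UMIs of Ncr1 plus Klrb1c, and 305 of them held Cd3 UMIs, 82 failed the neutrophil limit, 11 held Mcpt8 and 9 held Siglech. Among the 175 members, 126 had both Ncr1 and Klrb1c, 39 had Klrb1c alone and 10 had Ncr1 alone. As the gate set these 2 genes, their values describe the choice and support nothing further. Just inside the threshold, the 34 cells with 2 such UMIs carried Klre1 in 61.8% of cells, and just outside it the 58 cells with 1 such UMI and no other exclusion carried it in 24.1%. The 22 cells shut out by a single Cd3 UMI carried Klre1 in 72.7% and Trac, the T cell receptor alpha constant gene, in 9.09%, so some cells outside the gate resembled its members in these genes.

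Ncr1, the gene of NKp46 and with Klrb1c the basis of the gate, lies on chromosome 7. The 250 bases before its first annotated start in RefSeq (GRCm38.p6, plus strand, chr7:4337465-4337714) are shown because the gate rests on this gene, with capitals marking the letters TGTGGT on either strand, a core sequence read by RUNX factors.
Ncr1: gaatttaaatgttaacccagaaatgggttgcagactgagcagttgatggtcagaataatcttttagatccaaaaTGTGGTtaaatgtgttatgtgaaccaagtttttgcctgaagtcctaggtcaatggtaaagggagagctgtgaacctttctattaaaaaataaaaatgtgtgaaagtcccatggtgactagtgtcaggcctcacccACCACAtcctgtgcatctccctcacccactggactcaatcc
These letters occurred 2 times in that window. At least 1 match was present in 14.0% of all 32851 RefSeq windows of the same length, counted per window. The other shares were counted per gene, with a match before any of its annotated starts, and genes without a window were left out. They were 12.96% of 3364 genes tested in the comparison with CD8 T cells below, 18.2% of 170 called higher in NK cells and 14.8% of 210 called lower. A match is a description of the letters and not a binding site.

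Markers that the gate did not use were checked next. Klre1, a lectin-like receptor of NK cells, was detected in 73.7% of the gated cells, Eomes, a transcription factor of NK cell development, in 67.4%, and Prf1, the pore-forming protein perforin, in 62.3%. Klrd1 (CD94) was found in 87.4%, Klrk1 in 88.6%, Il2rb, a subunit of the receptors for IL-2 and IL-15, in 90.9%, and Gzma in 65.1%. In 4966 B-lineage cells (at least 2 UMIs of Cd79a plus Cd79b), which should lack these genes, Klre1 was detected in 0.201%, Eomes in 0.101% and Prf1 in 0.745%, at a median of 2931 UMIs per cell against 3377 in NK cells. The shares of Klre1, Eomes and Prf1 were thus far above the background that free RNA gives. Of the T cell receptor constant genes, Trac was detected in 3 of the 175 cells (1.71%), Trbc2 in 32.0% and Trdc in 20%, against 0.181%, 0.624% and 0.141% of B-lineage cells. The type 2 innate lymphocyte gene Il1rl1 was found in 0 of 175 cells. The genes Cxcr6 and Il7r, which are higher in type 1 innate lymphocytes (ILC1) and many T cells, were found in 8.57% and 18.3%. Il7r was also found in 15.2% of B-lineage cells, from 7.99% in PM 1 to 29.5% in vehicle 2. Whether that share is free RNA was not tested. The neutrophil gene S100a8 was detected in 84.6% of NK cells and in 90.6% of B-lineage cells. Free RNA and doublets can both add to such shares, and they were not told apart.

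**Figure D1:**
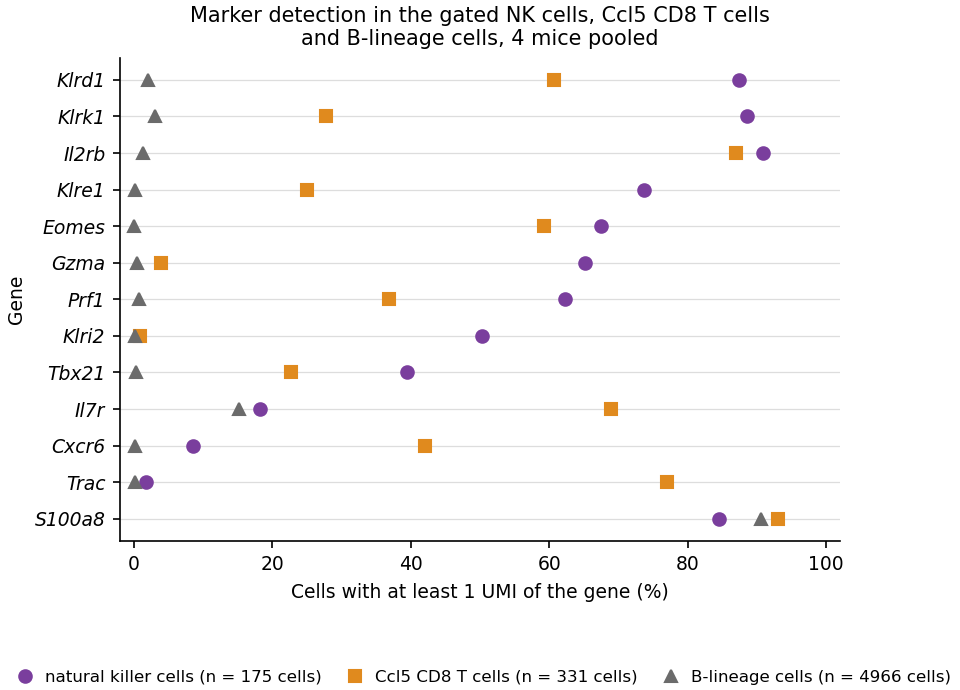
Share of cells with at least 1 UMI (x axis, %) of each gene (y axis) in the gated NK cells (circles), Ccl5 CD8 T cells (squares) and B-lineage cells (triangles), with the 4 mice pooled. Klre1 stood at 73.7% in NK cells, 25.1% in Ccl5 CD8 T cells and 0.201% in B-lineage cells, whereas S100a8 was found in 84.6% of NK and 90.6% of B-lineage cells.

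Some gated cells carried RNA of other cell types. Of the 175, 8 had over 1% of UMIs from neutrophil genes, 7 had 2 or more UMIs of B cell genes and 16 of monocyte genes. The setting below without all cells that carried transcripts of other types left 152 cells. In 3 of the 175 cells, over 10% of UMIs came from a list of 10 neutrophil genes. The largest was in vehicle 1, held 25265 UMIs or 26.2% of all NK UMIs of that mouse, and had 33.2% of its UMIs in the neutrophil list. The second, in vehicle 2, held 2711 UMIs with 21.2% in the list, and the third, in PM 1, held 8293 UMIs with 14.5%. Summed over the NK cells of a mouse, the neutrophil list took 89.8 per mille of UMIs in vehicle 1, 4.99 in vehicle 2, 8.51 in PM 1 and 2.71 in PM 2. Without the 3 cells, these values were 3.76, 1.41, 3.84 and 2.71. S100a9 was the most abundant gene of the list. The plasmacytoid list, led by Tcf4 with 121 UMIs, held 0.301, 0.320, 0.487 and 0.322 per mille in vehicle 1, vehicle 2, PM 1 and PM 2, with Cd209d and Klk1 at 0, and Siglech at 0 through the gate. The T cell list, led by Trbc1, held 0.840, 0.848, 0.814 and 1.04 per mille in the 4 mice, with Cd4, Cd5 and Cd8b1 at 0 in all gated cells. The B cell list, led by Ighm, held 0.259, 0.892, 1.50 and 0.817 per mille, and the progenitor list, led by Mpo, 0.695, 0.239, 0.590 and 1.92 per mille, where 113 of the 123 Mpo UMIs of PM 2 were in 1 cell. Values without the 3 cells stand beside several of the results below.

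The Ly49 (Klra) family, lectin-like receptors encoded next to each other on chromosome 6, was detected in different combinations from cell to cell, where a member without a UMI may still be expressed. Klra8 (Ly49H), an activating receptor for a viral protein of mouse cytomegalovirus, was detected in 89 of 175 cells (50.9%), and Klra4 (Ly49D), also activating, in 73 (41.7%). Of the inhibitory members, Klra7 (Ly49G2) was detected in 38.9% of cells, Klra9 (Ly49I) in 32.6%, Klra3 (Ly49C) in 23.4%, Klra1 (Ly49A) in 10.3% and Klra6 (Ly49F) in 4.57%. Klra5 and Klra10 were each found in 1 cell, and Klra2 and Klra17 in 0 of 175, which allows a share of cells with a UMI of up to 1.71% and sets no limit on cells that express them. B-lineage cells carried Klra2 in 5.44% and Klra17 in 3.44%. At least 1 Ly49 gene was detected in 72.6% of cells. The median was 2 per cell, 48 cells had none and 9 had 5 or more. Klra8 was found in 50% of NK cells in vehicle 1, 48.6% in vehicle 2, 52.8% in PM 1 and 50% in PM 2, which makes it the member with the narrowest range among the 5 most often detected. Klra1 ranged from 4.35% in PM 2 to 21.6% in vehicle 2, and both PM mice lay below both vehicle mice. The same order held for Klra4 (50% and 48.6% against 40.3% and 34.8%) and Klra7 (45% and 43.2% against 36.1% and 37.0%). It did not hold for Klra3, Klra6, Klra8 and Klra9. In sums scaled to a common library size (CPM), Klra4 overlapped between the groups, at 935, 1462, 1054 and 919 in vehicle 1, vehicle 2, PM 1 and PM 2. Such an order was common: of 3500 genes tested in these sums, 577 were higher and 565 lower with PM in 4 of 4 vehicle-PM pairs. That share was not counted for detection per cell.

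Ly49 genes arose by duplication, and the counting of reads can split or lose RNA of near-identical copies, so the share of any single member is uncertain. The similarity shows in the sequence before their annotated starts. The 120 bases before the first RefSeq start of 2 pairs are printed here in lower case (GRCm38.p6, minus strand), in the order of transcription, for Klra4 (chr6:130067272-130067391), Klra8 (chr6:130129899-130130018), Klra3 (chr6:130337627-130337746) and Klra9 (chr6:130193113-130193232).
Klra4: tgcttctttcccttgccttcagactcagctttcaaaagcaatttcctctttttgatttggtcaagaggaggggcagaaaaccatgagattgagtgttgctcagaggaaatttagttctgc
Klra8: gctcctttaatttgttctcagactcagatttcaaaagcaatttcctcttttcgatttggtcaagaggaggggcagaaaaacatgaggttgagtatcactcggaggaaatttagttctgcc
Klra3: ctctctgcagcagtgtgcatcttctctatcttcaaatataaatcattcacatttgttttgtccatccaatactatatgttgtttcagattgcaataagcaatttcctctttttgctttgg
Klra9: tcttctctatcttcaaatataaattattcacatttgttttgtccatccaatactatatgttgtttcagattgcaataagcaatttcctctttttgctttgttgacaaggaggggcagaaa
Over 250 bases before the start, Klra4 and Klra8 were 84.5% identical and Klra3 and Klra9 83.6% identical in a global alignment, while Klra4 and Klra9 reached 48.3% and Klra4 and Ncr1 49.8%. Among the first annotated starts of these 4 genes, the 2 activating members were close and so were the 2 inhibitory members. The inhibitory Klra7 reached 53.7% with Klra3, 48.6% with Klra4 and 46.9% with Klra9. All 4 printed stretches held the letters aagcaatttcctctttt, at different distances from the start, so these identities depend on which start is annotated. Klra7 and Klra8 have a second annotated start, which was not aligned. A split by activating and inhibitory function was not tested. TGTGGT was in none of the 4 stretches printed.

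**Figure D2:**
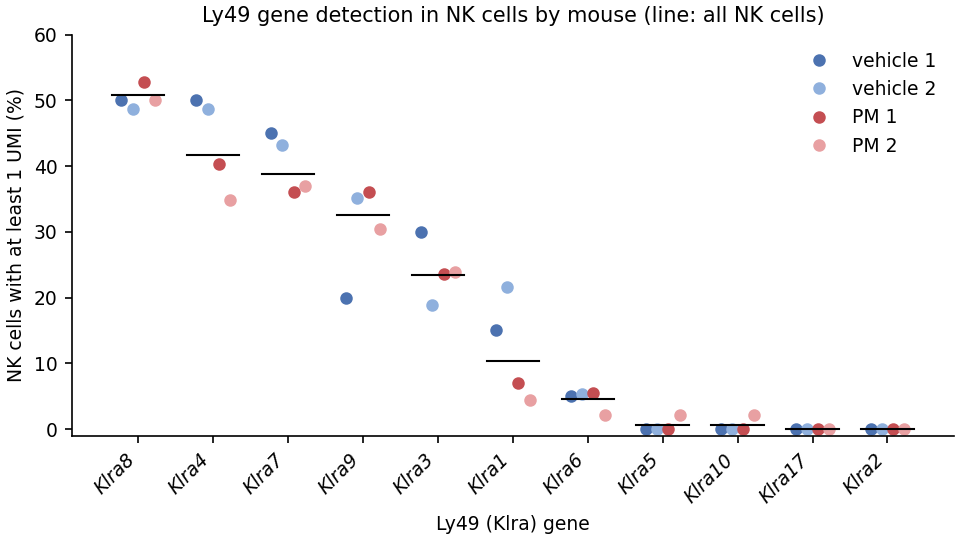
Share of NK cells with at least 1 UMI (y axis, %) of each Ly49 gene (x axis), with 1 point per mouse and a line for all 175 cells. Klra8 lay between 48.6% and 52.8% in the 4 mice, and Klra1 between 4.35% and 21.6%.

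Genes of earlier and later stages were both detected. Cd27, which marks earlier stages, was detected without Itgam in 45 cells, Itgam, which marks later stages, without Cd27 in 38, both genes in 27 and neither in 65. In B-lineage cells, Cd27 was detected in 8.40% and Itgam in 27.3%, against 41.1% and 37.1% of NK cells, and in 31017 neutrophil-like cells (at least 5 UMIs over 7 neutrophil genes and none of Ncr1 and Klrb1c) Itgam was detected in 87.3%, so the part of free RNA in the Itgam counts was not tested. With these few UMIs, a cell without detection may still express the gene. Cells with at least 2 UMIs of the proliferation genes Mki67 plus Top2a numbered 2 in vehicle 1, 2 in vehicle 2, 4 in PM 1 and 1 in PM 2.

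NK cells were then compared with another cytotoxic lymphocyte of the same mice, CD8 T cells that expressed Ccl5 (331 cells: 37, 41, 138 and 115 in vehicle 1, vehicle 2, PM 1 and PM 2). These were gated on at least 2 Cd3 UMIs, a Cd8a or Cd8b1 UMI, a Ccl5 UMI and no Ncr1 or Klrb1c. The last condition left out T cells that were closer to NK cells in Klre1: 228 cells with at least 2 Cd3 UMIs that met the other conditions of the NK gate carried it in 67.5%, against 25.1% of the Ccl5 CD8 T cells. Counts were summed per mouse and cell group and tested with edgeR's quasi-likelihood test with the mouse as a block. Calls required an adjusted p (Benjamini-Hochberg) under 0.05 and a log2 fold change beyond 0.5 in either direction. Gate genes were left out, and genes whose RNA goes along with a gate gene are not independent of the choice. Of 4182 genes tested, 223 (5.33%) were higher and 283 (6.77%) lower in NK cells, with 135 and 194 when PM 2 was left out, and the median log2 difference of all genes was -0.002.

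Of the 10 called genes with the largest excess in NK cells among those with a mean of at least 50 CPM (UMIs scaled to a common library size, normalised by TMM), 6 encode receptors. Klrb1b, an inhibitory relative of NK1.1, was at 129 UMIs in NK cells and 0 in CD8 T cells. With a floor of 3 UMIs over the CD8 T cells of all mice, it was 104.7-fold higher. The 95% counting interval of its CPM ratio began at 83.97. Klra8 stood at 694, 883, 892 and 871 CPM in the NK cells of vehicle 1, vehicle 2, PM 1 and PM 2, and at 0, 0, 4.77 and 22.1 CPM in the CD8 T cells. The groups did not overlap, and the log2 fold change was 6.47 ± 0.37 (SE, edgeR, adjusted p = 1.44e-07). Klra4 gave 6.10 ± 0.31, Klri2, a partner of Klre1, 6.46 ± 0.39, and Klrb1a 5.78 ± 0.68, the last on 73 UMIs against 2 (ratio of CPM 88.9, 95% counting interval 23.7 to 748). In the list of activating receptors, 6 of 13 tested genes were higher and 2 lower, with a list median of 0.72. Klrb1f (3.76 ± 0.29), Cd244a (4.25 ± 0.34) and Klrk1 (2.08 ± 0.21) were among the higher ones, and Cd69 (-1.69 ± 0.26) and Slamf6 (-1.11 ± 0.27) were the lower ones. In the inhibitory list 6 of 10 were higher and 0 lower, among them Klra9 (3.67 ± 0.26), Klra3 (2.55 ± 0.28) and Klrc1 (NKG2A, 1.14 ± 0.21), while Klra6 was at -1.74 ± 0.62 without passing the test (edgeR, adjusted p = 0.064).

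Signalling downstream of the receptors differed in its parts. Tyrobp (DAP12) and Fcer1g, the adaptors through which NK cell receptors signal, were higher in NK cells by 4.23 ± 0.32 and 3.75 ± 0.24 on the log2 scale, as were the kinase Syk (3.24 ± 0.34) and the adaptor Lat2 (3.21 ± 0.33). Lat, the adaptor of the T cell receptor, was lower (-2.17 ± 0.26), and so were Hcst (DAP10, -0.77 ± 0.14), the kinase Zap70 (-0.79 ± 0.22) and the kinase Lck (-0.64 ± 0.16). In all, 4 of 13 genes of this list were higher and 4 lower. With DESeq2 the counts were 5 higher and 2 lower, of 15 genes with an adjusted p.

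Granule genes split as well. Gzma, a granzyme, stood at 4296, 4413, 3233 and 3575 CPM in NK cells and at 0, 20.3, 38.1 and 30.9 CPM in CD8 T cells, a log2 fold change of 7.03 ± 0.50 (edgeR, adjusted p = 0.00443). Its adjusted p was 0.0623 without vehicle 2 and 0.0656 without PM 2, with fold changes of 6.94 and 7.17. Gzmb (2.88 ± 0.26), Prf1 (2.10 ± 0.19) and the granzyme inhibitor Serpinb9 (2.65 ± 0.22) were higher in NK cells, whereas Gzmk (-5.27 ± 0.79) and Gzmm (-4.08 ± 0.48) were lower. Of 20 genes in the list of cytotoxic effectors, 8 were higher and 3 lower. Among secreted factors, Ccl3 (3.71 ± 0.35) and Ifng (1.60 ± 0.34) were higher, and Ccl4 (2.55 ± 0.52) and Xcl1 (1.83 ± 0.43) did not pass the test (edgeR, adjusted p = 0.0569 and 0.0521).

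Transcription factors and maturity genes came next. Zeb2 (1.84 ± 0.22), Tbx21 (T-bet, 1.33 ± 0.23), Id2 (1.12 ± 0.18) and Eomes (0.80 ± 0.16) were higher in NK cells, and Tcf7 (-1.46 ± 0.18) and Foxo1 (-1.16 ± 0.24) lower, out of 18 transcription factors tested. In the mature NK list 9 of 10 tested genes were higher and 0 lower, with S1pr5 at 3.59 ± 0.59 and Itgam at 2.50 ± 0.28. In the immature NK list 1 of 11 was higher and 7 were lower, with Il7r at -2.05 ± 0.19, Thy1 at -1.76 ± 0.16 and Cd27 at -0.55 ± 0.19. DESeq2 called 3 higher and 5 lower in this list, of 12 genes with an adjusted p. All of these lists were compared with T cells, which use the same genes of the immature list. The ILC1 list held 3 lower genes of 5 tested, Cxcr6 (-2.34 ± 0.30), Il21r (-2.29 ± 0.35) and Il7r, and none higher. Of 12 receptors for cytokines tested, 4 were higher and 3 lower. Il18rap (1.49 ± 0.16), Il10ra (1.01 ± 0.22), Il2rb (0.91 ± 0.11) and Il18r1 (0.76 ± 0.17) were higher, and Il21r, Il7r and the TGF-beta receptor subunit Tgfbr2 (-1.03 ± 0.24) lower. In the homing list, the integrin Itga2 (CD49b, 2.96 ± 0.34) and the chemokine receptor Ccr2 (1.42 ± 0.29) were higher and S1pr1 (-2.24 ± 0.30) and Cxcr3 (-0.98 ± 0.25) lower.

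Genes with few or no UMIs in NK cells included parts of the T cell machinery. Themis, needed for T cell selection, was at 343 UMIs in CD8 T cells and 0 in NK cells. Cd5, a brake on the T cell receptor, was at 169 UMIs against 0. With a floor of 3 UMIs over the NK cells of all mice, they were 46.9-fold and 23.1-fold lower in NK cells. The 95% counting intervals of their CPM ratios began at 37.97 and 18.6. Cd6 stood at 362 UMIs against 3, and Ccr7, the receptor that guides cells to lymph nodes, at 161 against 3, a CPM ratio of 22.03 (95% counting interval 7.40 to 108). Fam169b, Il6ra, BE692007, Slfn1 and Nsg2 completed the 10 called genes that were lowest in NK cells among those with a mean of at least 50 CPM, T cell receptor genes left out, with 2 to 4 UMIs each in NK cells. Trac, left out as such a gene, was at -6.07 ± 0.38, and Gzmk, given above, had a mean of 47.1 CPM. Sulf2, which trims sulfate from heparan sulfate, Gm36723, Adamts14 and Tnfrsf9 (4-1BB), a co-stimulatory receptor, completed the 10 that were highest under the same conditions, with log2 fold changes of 4.82, 4.66, 4.40 and 4.36. Cma1, a chymase, had a mean of 44.8 CPM and so fell under that limit, but was called higher, at 165, 26.7, 81.9 and 85.3 CPM in NK cells and 0 in all CD8 T cells. Of 24 ribosomal protein genes, 21 were called lower and 0 higher, with a list median of -0.73. The neutrophil list was higher in all 9 genes tested by value (median 1.49), with none called.

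**Figure D3:**
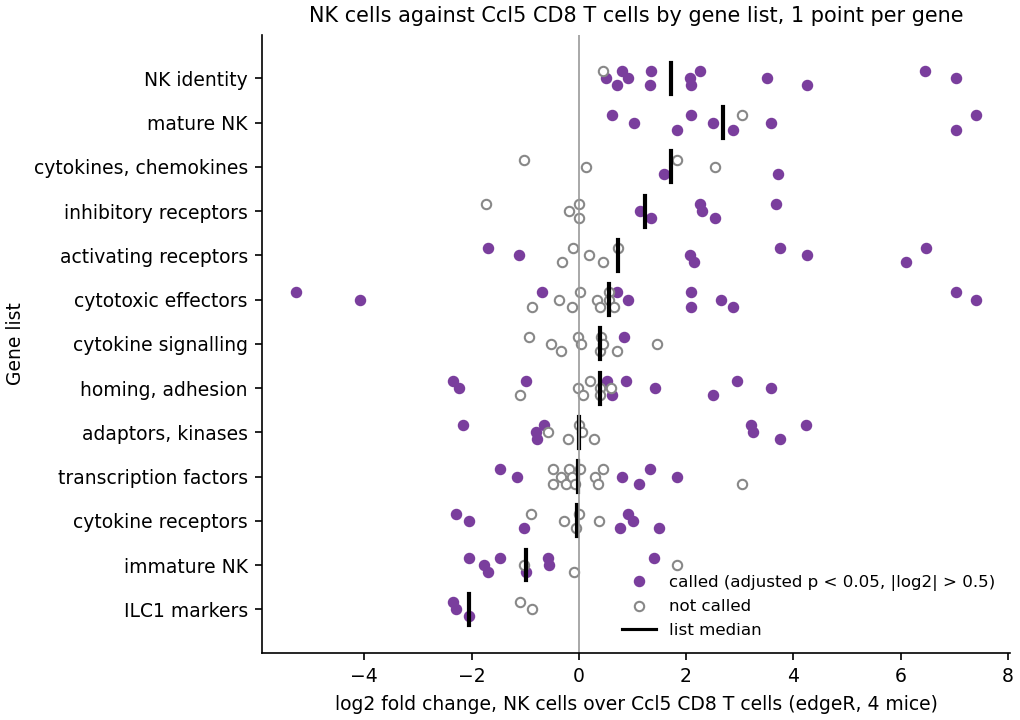
Log2 fold change of NK cells over Ccl5 CD8 T cells (x axis, edgeR, 4 mice) for the tested genes of 13 lists (y axis), with 1 point per gene, filled where called, and a bar at the list median. The mature NK list has its median at 2.69 with 9 of 10 genes called higher, and the immature NK list at -0.98 with 7 of 11 called lower.

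The share of NK cells among kept cells was 0.216% in vehicle 1 (95% exact Clopper-Pearson interval 0.132 to 0.333), 0.473% in vehicle 2 (0.333 to 0.651), 0.538% in PM 1 (0.421 to 0.677) and 0.496% in PM 2 (0.364 to 0.661). These intervals cover counting error only. Both PM mice lay above both vehicle mice, and the interval of vehicle 2 overlapped those of the PM mice. This order was not kept under 2 stricter settings. PM was higher in 2 of 4 pairs of a vehicle and a PM mouse where both Ncr1 and Klrb1c had to be detected. The difference there was 0.0948 percentage points. PM was higher in 3 of 4 pairs where kept cells had at least 500 genes and at most 10% mitochondrial UMIs (0.156 points). The order was kept with at least 3 UMIs of Ncr1 plus Klrb1c (0.141 points). It was also kept with up to 1 Cd3 UMI allowed (0.201 points). The mean was 0.517% ± 0.0294 with PM and 0.344% ± 0.182 with vehicle (SD, n = 2), a difference of 0.173 percentage points in an exact two-sided permutation test with p = 0.333, the smallest p that 2 mice against 2 allow. Without vehicle 1 the difference was 0.0443 points. With cells thinned to 2000 UMIs before the gate, the means were 0.441% with PM and 0.348% with vehicle, and PM was higher in 2 of 4 pairs of a vehicle and a PM mouse. With the gate applied before thinning, they were 0.515% and 0.365%, and PM was higher in 4 of 4 pairs. Both leave out the cells under 2000 UMIs, which numbered 778 in vehicle 1, 1104 in vehicle 2, 1991 in PM 1 and 1214 in PM 2, with 1, 3, 14 and 4 NK cells among them. Neutrophil-like cells made up most of the denominator (31017 of 39743), a number that free RNA can raise. Among NK plus T cells, NK cells made up 17.4% in vehicle 1, 23.6% in vehicle 2, 14.7% in PM 1 and 13.9% in PM 2, so the order was turned, with PM lower in 4 of 4 pairs (exact permutation p = 0.333). There were 95, 120, 418 and 284 T cells (at least 2 Cd3 UMIs) in the 4 mice, none with a UMI of Ncr1 or Klrb1c. The 228 cells with at least 2 Cd3 UMIs that met the other conditions of the NK gate were in neither part. The order with them included was not tested. Among cells with at most 1 UMI over the 7 neutrophil genes, the mean share was 1.61% with PM and 1.67% with vehicle, and PM was higher in 2 of 4 pairs. Among cells with at most 5% of UMIs in the neutrophil list, a limit chosen after the data were seen, it was 1.40% and 0.912%. A fall or rise of other cell types and a change in NK cells cannot be told apart from shares.

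**Figure D4:**
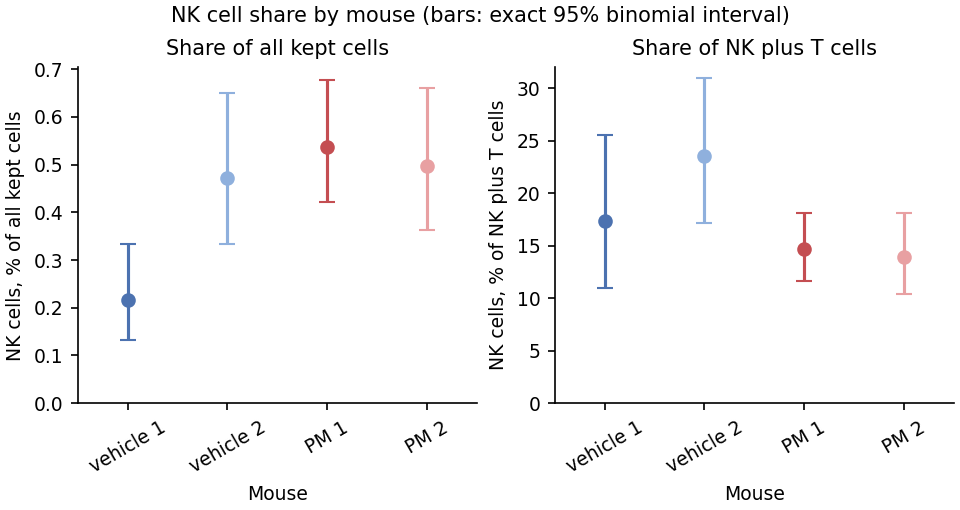
NK cells as a percentage (y axes) of all kept cells (left) and of NK plus T cells (right) in each mouse (x axis), with exact 95% binomial intervals. Both PM mice lie above both vehicle mice on the left (0.496% and 0.538% against 0.216% and 0.473%) and below them on the right (13.9% and 14.7% against 17.4% and 23.6%).

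Within NK cells, no gene was called between PM and vehicle. Counts were summed over the NK cells of each mouse, and 3500 genes passed edgeR's filter on low counts. The test called 0 (0%), and 88 genes (2.51%) were higher and 76 (2.17%) lower with PM at an unadjusted p under 0.05. Leaving out 1 mouse at a time gave 1 to 8 genes called higher and 5 to 23 called lower, the most (8 and 23) without vehicle 2. DESeq2, run on 12276 genes without that filter, also called 0, with 23 higher and 28 lower at an unadjusted p under 0.05. With 20 to 72 cells per mouse the test could see only large differences: in counts simulated on these libraries it recovered 84.9% of changes of 2 on the log2 scale and 22.4% of changes of 1. The values that follow are measurements and not changes. In such sums, fewer cells of a subset and less RNA per cell cannot be told apart.

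Of the markers, Klre1, Eomes and Klrb1c overlapped between groups, and Prf1 and Ncr1 did not. A lack of overlap was common: of all 3500 genes tested, 577 were higher and 565 lower with PM in 4 of 4 pairs. Klre1 stood at 807, 559.9, 636 and 892 CPM in vehicle 1, vehicle 2, PM 1 and PM 2, with overlapping groups and a log2 fold change of 0.17 ± 0.27 (SE). Eomes stood at 384, 625, 598 and 619 CPM (0.24 ± 0.27), again with overlap. Prf1 was at 909.8 and 749 CPM with vehicle and at 579 and 519 CPM with PM, without overlap (-0.58 ± 0.25, edgeR, adjusted p = 0.991). Ncr1, which the gate used, was at 436 and 553 CPM with vehicle and at 727 and 586 CPM with PM (0.40 ± 0.26, edgeR, adjusted p = 0.991). Klrb1c, also a gate gene, was at -0.09 ± 0.24. As the cells were chosen by these 2 genes, their values cannot show an effect of PM.

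Of the genes with the smallest unadjusted p, several of those with lower values in PM belong to cell division. Mki67, a nuclear protein of cycling cells, stood at 282 and 364 CPM with vehicle and at 85.5 and 13.3 CPM with PM, a log2 fold change of -2.58 ± 0.46 (edgeR, adjusted p = 0.112). It was carried by few cells. In vehicle 1, 19 of its 22 UMIs were in 1 cell, which is the cell with 33.2% neutrophil UMIs, and in vehicle 2, 42 of 50 UMIs were in 1 cell. Without the 3 cells rich in neutrophil RNA, vehicle 1 was at 3 UMIs or 42.1 CPM of all UMIs, below the 66.0 CPM of PM 1, and the log2 fold change was -2.28 (adjusted p = 0.990). The adjusted p passed the threshold with any 1 of the 4 mice left out, from 5.12e-08 without PM 1 to 0.0170 without PM 2. Hmgb2, a chromatin protein that is high in cycling cells, stood at 1704, 1941, 1168 and 712 CPM, and 101 of its 133 UMIs in vehicle 1 came from the same cell. Without the 3 cells Hmgb2 was at 449, 1688, 933 and 616 CPM of all UMIs and the groups overlapped. Smc4 (condensin), Lmnb1 (lamin B1) and G2e3 showed the same order of groups in the sums, with log2 fold changes of -0.98, -1.43 and -2.08. In vehicle 1, 1 cell held 16 of 25 Smc4 UMIs and 6 of 8 Lmnb1 UMIs. Without the 3 cells Smc4 was at -0.67 and Lmnb1 at -1.32, and both overlapped between the groups (Smc4 at 126, 288, 157 and 115 CPM and Lmnb1 at 28.1, 224, 78.4 and 34.5 CPM of all UMIs). Top2a, chosen after its values were seen, was at 256, 334, 185 and 46.6 CPM, with 19 of 20 UMIs of vehicle 1 in that same cell, and its log2 fold change moved from -1.29 to -0.78 without the 3 cells. In the cell cycle list, 0 of 13 genes were called, 4 were lower and 0 higher at an unadjusted p under 0.05, and the median was -0.58, against 0.01 for all genes. Without the 3 cells that median was -0.24.

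Further genes had lower values in PM. Rgs1, which damps signalling by chemokine receptors, was at 474 and 385 CPM with vehicle and at 133 and 233 CPM with PM (-1.24 ± 0.31, edgeR, adjusted p = 0.773), and 26 of the 53 UMIs of vehicle 2 were in 1 cell. Its adjusted p passed the threshold in 4 of 13 other settings, the lowest being 0.00579 where both Ncr1 and Klrb1c had to be detected. Ddit4, an inhibitor of mTORC1 signalling that glucocorticoids and stress raise, was at 167 and 116 CPM with vehicle and at 42.7 and 46.6 CPM with PM (-1.60 ± 0.46, adjusted p = 0.922), found in 8, 11, 8 and 5 cells. Ier2, an immediate early gene, stood at 256, 559.9, 99.7 and 219.7 CPM (-1.46 ± 0.42, edgeR, adjusted p = 0.991), and passed in 4 of 13 other settings, the lowest adjusted p being 7.71e-05 without vehicle 1. Vps37b stood at 372, 349, 99.7 and 253 CPM, and Golim4 at 192, 116, 33.2 and 53.2 CPM, where 14 of the 15 UMIs of vehicle 1 were in the cell rich in neutrophil RNA. Of 16 immediate early genes, 3 were lower and 0 higher at an unadjusted p under 0.05 (median -0.37, and -0.46 without the 3 cells), and of 5 tested genes that glucocorticoids raise, 2 were lower and 0 higher (median -0.41, and -0.49 without the 3 cells).

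Among genes with higher values in PM, Klrb1f, an activating receptor of the NKR-P1 family, was at 167 and 218 CPM with vehicle and at 465 and 359 CPM with PM, with no overlap (1.07 ± 0.29, edgeR, adjusted p = 0.773). Klrb1f was detected in 8 of 20, 20 of 37, 47 of 72 and 30 of 46 NK cells. Ccl4 (MIP-1 beta), a chemokine that activated NK cells release, was at 449, 313, 584 and 992 CPM (1.07 ± 0.29, adjusted p = 0.773), with 62 of the 123 UMIs of PM 1 in 1 cell. Tcf12, a helix-loop-helix transcription factor, stood at 128 and 138 CPM with vehicle and at 285 and 293 CPM with PM, with little spread in either group. Nfat5, a factor of the response to osmotic stress, was at 51.3, 87.3, 199 and 173 CPM, and Mif, a cytokine, at 89.7, 196, 356 and 286 CPM. Nrgn was at 0 UMIs in vehicle 1 and at 12, 43 and 34 UMIs in vehicle 2, PM 1 and PM 2. Gng2, Dtx3 and Carnmt1 had log2 fold changes of 1.59, 2.33 and 2.32 on 2 to 6 UMIs in each vehicle mouse. Ifi203, an interferon-inducible gene, was at 231 and 313 CPM with vehicle and at 475 and 532 CPM with PM (0.86 ± 0.27).

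**Figure D5:**
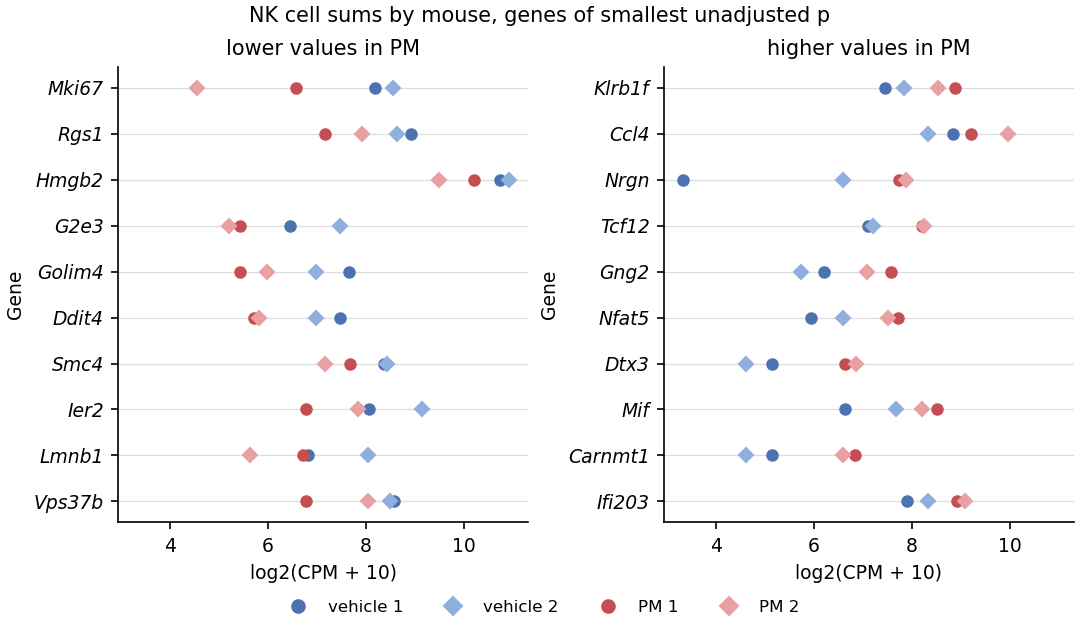
TMM-normalised level of the 20 genes of smallest unadjusted p in NK cell sums (x axes, log2 of CPM plus 10), with 1 point per mouse and 1 gene per row (y axes), blue for vehicle and red for PM. The genes were picked for this separation and none was called. Mki67 lies at 282 and 364 CPM with vehicle and at 85.5 and 13.3 CPM with PM.

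By function, lists differed in their balance but held no called gene. Of 11 tested type I interferon genes, 4 were higher and 0 lower at an unadjusted p under 0.05 (Ifi203, Samd9l, Slfn8 and Parp14), 10 had a log2 fold change above 0, and the median was 0.68 (0.57 without the 3 cells and 0.43 without all cells that carried transcripts of other types). Summed over the 48 genes of the list that are in the files, tested or not, the level was 2.17, 1.41, 2.31 and 2.74 per mille of UMIs in vehicle 1, vehicle 2, PM 1 and PM 2, so both PM mice lay above both vehicle mice, whereas without the 3 cells it was 2.60, 1.39, 2.33 and 2.74 per mille and the groups overlapped. Of 19 MHC class I genes, 1 was higher at that threshold (H2-K1, at 3755, 3745, 4417 and 5711 CPM) and 15 had a value above 0, with a median of 0.23. The ribosomal list, with 2 of 24 higher, had a median of 0.23 as well.

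The killing machinery gave mixed values. Of 17 cytotoxic effectors tested, 1 (Prf1) was lower and 0 higher at an unadjusted p under 0.05, and 11 were below 0, with a median of -0.27 that moved to -0.13 without the 3 cells and to -0.04 without all cells that carried transcripts of other types. Gzma stood at 4677 and 4799 CPM with vehicle and at 3562 and 3907 CPM with PM (-0.34 ± 0.19), Nkg7 at 1832, 1425, 1297 and 1245 CPM (-0.35 ± 0.23) and Gzmb at 0.23 ± 0.31. In 13 adaptors and kinases, 0 were past an unadjusted p under 0.05 in either direction. At the same unadjusted threshold, Klrb1f and Cd69 were higher among 14 activating receptors. These 14 include the gate genes Ncr1 and Klrb1c, whose values depend on the choice of cells. Of 9 inhibitory receptors, Klra7 (615, 589, 408 and 386 CPM) and Klra1 were lower at that threshold. Among 7 secreted factors, again without adjustment, Ccl3, Ccl4 and Ltb were higher and Ccl5 (3934, 4472, 2916 and 2842 CPM) lower. In the homing list, 1 of 13 genes tested was higher and 1 lower at an unadjusted p under 0.05, with a median of -0.02. The higher one was Ccr2, which guides cells out of the marrow toward inflamed tissue, at 513, 719.9, 1002 and 1032 CPM. Klf2 was at 859 and 909 CPM with vehicle and at 527 and 619 CPM with PM, and Zeb2 at 346, 334, 479.7 and 539 CPM. None of these genes passed the adjusted threshold. Of the drug's targets, Hdac1 (0.47 ± 0.36) and Hdac2 (-0.65 ± 0.61) could be tested, and the adjusted p of both was 0.991 (edgeR). The survival genes Bcl2 and Mcl1 were at -0.05 ± 0.25 and -0.04 ± 0.25.

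The balance of mature to immature genes was summarised per mouse as the log2 ratio of summed UMIs of both lists. It was 2.30 in vehicle 1, 2.10 in vehicle 2, 1.85 in PM 1 and 1.44 in PM 2, lower with PM in 4 of 4 pairs. The means were 2.20 ± 0.141 with vehicle and 1.64 ± 0.289 with PM (SD, n = 2), a difference of -0.56 (exact two-sided permutation p = 0.333, the smallest possible), and of -0.63 without the 3 cells. Gzma had the most UMIs of the mature list. When every gene of a list had equal weight, PM was higher in 1 of 4 pairs, with a difference of -0.51 (exact permutation p = 0.667).

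T cells were here 917 cells with at least 2 Cd3 UMIs, and none held a UMI of Ncr1 or Klrb1c. They thus left out the 228 cells with at least 2 Cd3 UMIs that met the other conditions of the NK gate. Whether PM acted differently in NK cells and in these T cells was tested as an interaction over 5943 genes, with the mouse as a block. The edgeR test called 2 genes (0.0337%). Car2 (carbonic anhydrase 2) stood at 310.1, 225, 263 and 219 CPM in the NK cells of vehicle 1, vehicle 2, PM 1 and PM 2, and at 6.69, 9.77, 157 and 251 CPM in the T cells. It was detected in 55.0%, 51.4%, 47.2% and 50% of NK cells, against 2.11%, 3.33%, 5.50% and 4.23% of T cells, and against 11.9%, 12.2%, 17.2% and 21.9% of B-lineage cells. Over all kept cells Car2 stood at 136, 376, 255 and 381 CPM of all UMIs, against 290.3, 219.9, 255 and 219 CPM on the same scale in NK cells. The PM effect in NK cells minus that in T cells was -4.57 ± 0.53 (adjusted p = 4.99e-05). In T cells the counts came from few cells: 211 of 250 UMIs in PM 1 were in 1 cell and 273 of 288 in PM 2 were in 2 cells, and these 3 cells also held 972 UMIs of erythroid genes. Without them, T cells stood at 22.05 and 12.5 CPM in PM 1 and PM 2, against 6.32 and 8.56 CPM with vehicle (CPM of all UMIs). Ccl3 (MIP-1 alpha), a chemokine of activated NK cells, was at 122, 161, 181 and 409 CPM in NK cells and at 30.1, 44.9, 4.39 and 19.2 CPM in T cells, with a difference of effects of 2.82 ± 0.51 (adjusted p = 0.0379). Within NK cells alone the Ccl3 log2 fold change was 1.01 and within T cells -1.82, neither called. With the Ccl5 CD8 T cells in place of all T cells, the adjusted p was 0.914 for Car2 and 0.233 for Ccl3, where the differences were -5.34 and 2.37. Ccl3 also lost its call with DESeq2 (2.93, adjusted p = 0.999995) and without vehicle 2, PM 1 or PM 2 (0.101, 0.444 and 0.0616), with differences of 2.72, 2.52 and 3.401. In the NK cells of PM 1, 32 of 44 Ccl3 UMIs were in 2 cells, and in those of PM 2, 27 of 71 were in 2 cells. In the T cells of vehicle 2, 13 of 23 Ccl3 UMIs were in 1 cell. Without that cell these T cells stood at 18.7 in place of 39.4 CPM of all UMIs.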

How the data were processed

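The authors aligned the reads of each library to the 10x GRCm38 mouse reference with Cell Ranger 6.0.1 and deposited raw counts of UMIs for each barcode and gene. The submitters' notes name GRCm39 instead, so sequences and positions here come from RefSeq on GRCm38.p6 by gene symbol. Gates, sums per mouse, shares and exact tests were computed in Python 3.11.15 (scipy 1.17.1), with a 95% confidence level. The test on sums was a robust quasi-likelihood fit in edgeR 4.0.16 after filterByExpr and TMM (R 4.3.3), and DESeq2 1.42.0 was an alternative. Doublets were not called. CPM are normalised by TMM over the tested genes. The labels do not state that the mouse numbers 1 and 2 pair mice of different groups. With 2 mice a group, the correlations of deviations for the 2 possible pairings must be equal in size and opposite in sign (0.0396 and -0.0396), so they cannot settle this. The NK gate, the 36 gene lists and the tests were chosen with earlier results of these data known. Named genes are the markers, the called genes with the largest changes or, where under 10 were called, those of smallest unadjusted p (mean of at least 50 CPM, same direction in 4 of 4 pairs), and the 4 most abundant genes of each function list. The step was tested on simulated data, with 9 false calls in the 3500 genes of PM against vehicle when 107 and 93 of them were changed by 1 and 2 on the log2 scale, and 1 when none was, and with 11 and 3 false calls in the 4190 genes of NK against CD8 T cells. With 1 library per mouse, library and mouse cannot be told apart. The p-values measure the spread between these 4 libraries. The values of 1 gene are not reported here.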

Additional observations from a re-analysis of the deposited data

Results flagged for a closer look

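The PM effect on 2 genes differed between NK cells and T cells by edgeR's test of the difference itself. Car2 had a difference of -4.57 on the log2 scale, where NK cells changed by -0.10 and T cells by 4.52, and 3 T cells of the PM mice held 484 of the 538 Car2 UMIs of their T cells. Ccl3 had a difference of 2.82, where NK cells were at 1.01 and T cells at -1.82. Its call held in 2 of 7 other settings and was lost with DESeq2 (adjusted p = 0.999995), while the difference stayed between 2.37 and 3.401. Car2 lost its call in 1 of the 7, with Ccl5 CD8 T cells (-5.34). The part of erythroid RNA in the Car2 value was not tested.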

How the results depend on the processing

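The difference in NK share (PM minus vehicle, percentage points) turned to -0.0540 among kept cells with at most 1 UMI over the 7 neutrophil genes, which left 8, 19, 10 and 17 of the 20, 37, 72 and 46 NK cells of vehicle 1, vehicle 2, PM 1 and PM 2, and to -6.16 among NK plus T cells, and ranged from 0.0443 to 0.301 when 1 mouse was left out. The log2 mature-to-immature difference stayed below 0 in all settings run, from -0.761 to -0.352 with 1 mouse left out. Between PM and vehicle, genes called higher and lower numbered 1 and 4 without a filter on low counts, 3 and 8 with the replicate block, 1 and 3 where both Ncr1 and Klrb1c had to be detected, and 1 to 8 and 5 to 23 with 1 mouse left out. They numbered 0 and 0 in the other 6 settings, among them DESeq2, library size only and without the 3 cells rich in neutrophil RNA. With 1 mouse left out, Klre1 ranged from -0.0903 to 0.43 (-0.0682 without vehicle 2) and Eomes from -0.0501 to 0.68 on the log2 scale, so both turned. Prf1 and the 20 genes of smallest unadjusted p kept their sign in the settings where they were tested. Their size did not always hold: Hmgb2 ranged from -1.37 to -0.105 and Smc4 from -1.31 to -0.130. Hmgb2 passed the threshold where both Ncr1 and Klrb1c had to be detected (edgeR, adjusted p = 0.0390). With the replicate block, the adjusted p (edgeR) was 1.81e-07 for Mki67, 0.0164 for Rgs1, 0.00950 for Ier2 and 0.0380 for Top2a, all lower, and 0.00727 for Nrgn and 0.0480 for Ccl4, both higher. Nrgn passed in 3 and Ccl4 in 2 of 13 other settings. For NK against Ccl5 CD8 T cells, DESeq2 called 136 higher and 177 lower, the fit without a block 178 and 216, that without the 3 cells 245 and 270, and those with 1 mouse left out 135 to 233 and 194 to 263. For the interaction, the counts were 3 and 3 with Ccl5 CD8 T cells, 0 and 1 with DESeq2, 1 and 2 without the 3 cells, and 0 to 26 and 1 to 33 with 1 mouse left out. The causes were not tested. A fit that leaves out a mouse has 1 mouse in a group, which is assumed to vary like the others. Depth limits the NK sums, which held 96462 to 250645 UMIs per mouse.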

Other observations

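Beyond the lists of NK function, 4 more lists were counted between NK cells and Ccl5 CD8 T cells in edgeR's test, where 5.33% of all genes were higher and 6.77% lower in NK cells. Of 20 type I interferon genes, 2 were lower in NK cells and 0 higher, namely Slfn1 (-4.72 ± 0.41) and Ifi27l2a (-3.37 ± 0.37). Among 4 histone deacetylase genes tested, Hdac7 (-0.89 ± 0.21), which restrains gene activity during T cell maturation, and Hdac4 (-0.97 ± 0.28) were lower in NK cells, and Hdac1 and Hdac2, which belong to the class that PM inhibits, stood at 0.13 ± 0.23 and -0.58 ± 0.32 without passing the test. With DESeq2, 0 of 7 histone deacetylase genes with an adjusted p were called, with 0 higher and 1 lower at an unadjusted p under 0.05, while the type I interferon list again had 2 genes lower and 0 higher. Of 19 MHC class I genes, edgeR called 0, with 1 higher and 1 lower in NK cells at an unadjusted p under 0.05, and DESeq2 also called 0, with 1 higher and 0 lower at that threshold. Of 29 genes of oxidative phosphorylation, edgeR called 1 higher and 0 lower, and DESeq2 called 0, with 1 higher and 0 lower at an unadjusted p under 0.05.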
